A study of Mus musculus with 9 samples.

Results

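The 91 genes described here encode nuclear subunits of the mitochondrial respiratory chain and of ATP synthase, with 8 assembly factors of complex I. They were chosen by symbol alone, as all genes with a probe set of 1 gene whose symbol starts with Ndufa, Ndufb, Ndufc, Ndufs, Ndufv, Uqcr or Atp5, or is Cyc1, Sdha to Sdhd, or of the Cox4 to Cox8 groups, and they are 91 of the 18193 genes measured. Each gene was read from its probe set of highest mean level. 90 passed the filter on low values (mean above 4.54, log2), and Ndufb4 did not. Complex I had 34 members (33 passed), its assembly factors 8, complex II 4, complex III 9, complex IV 19 and complex V, the ATP synthase, 17. Ndufa4, named for complex I and since placed in complex IV, and its relative Ndufa4l2 were counted with complex IV.

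The RNA came from invariant natural killer T (iNKT) cells of the mouse thymus, T cells with a nearly fixed receptor for lipids on CD1d, and was measured on 1 expression array per sample. There were 4 Utx knockout arrays (KO1 to KO4) and 5 Utx wildtype arrays (WT1 to WT5), from sex- and age-matched animals of 8 to 12 weeks. Utx, encoded by Kdm6a, is a demethylase of histone H3, and the series asks how its loss changes these cells. The titles put KO1 and WT1 in batch 1, KO2, KO3, KO4 and WT2 in batch 2, and WT3, WT4 and WT5 in batch 3. How Utx was deleted, in which cells the deletion took place, whether animals were pooled and which gate the sort used are not given in the sources used here. Of the markers of the labelled cell type, Zbtb16, the lineage factor PLZF, read 10.46, 10.71, 10.96 and 10.77 in knockout cells, against 11.18, 10.69, 11.01, 10.82 and 11.03 in wildtype cells, and Cd3e, a chain of the T cell receptor complex, 12.94, 12.77, 13.01 and 12.70 in knockout cells, against 12.79, 12.93, 12.90, 12.86 and 12.87 in wildtype cells. Both were present on every array, and neither passed the test between genotypes. They belong to a list of 8 measured iNKT cell markers. Of these, 3 (Cd44, Il2rb and Tbx21) passed as lower in knockout cells, and 6 had a negative difference.

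Electrons from NADH enter the chain at complex I and those from succinate at complex II. Both pass through coenzyme Q to complex III, by cytochrome c to complex IV, and there to oxygen, while complexes I, III and IV pump protons that drive ATP synthase. The nucleus encodes most subunits, and mitochondrial DNA encodes the rest, which were not analysed here. Dividing and activated T cells are known to build mitochondria, and resting memory-like T cells rely on respiration.

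Few of these genes passed the test between genotypes, and those that did were all higher in knockout cells. 5 of 90 members rose and 0 fell at an adjusted p of 0.05 (limma with genotype and batch as factors, adjusted over all 14524 genes tested), where 7.88% of all genes rose and 3.37% fell. This is 5.56% of the members, below the 11.3% of all genes called in either direction. Those that rose were Cox6b2 and Cox7a1, tissue-restricted paralogues of complex IV subunits, and the complex I subunit genes Ndufb6, Ndufa5 and Ndufc1. Cox7a1 passed the filter on low values through its knockout arrays alone, so 4 of the calls are of genes with both group means over it. At an unadjusted p of 0.05, 18 members were higher (20% of all genes) and 1 was lower, Cox7b2 (10.7% of all genes). The largest difference was 2.28 (log2, knockout minus wildtype), for Cox6b2, and the most negative of a gene with both group means over the filter level was -0.47, for Ndufa4. Counts rested on the batch term: without it 37 members were higher and 2 lower, 43.3% of members against 43.7% of all genes.

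Small positive differences were common. On the values as deposited, 78 of 90 members had a positive difference, and 12 a negative one, against 59.2% and 40.8% of all genes, and the median member difference was 0.21 against 0.11 over all genes tested. With each array centred on its own median over genes, 1 probe set per gene, this sign turned. The median member difference was -0.14 with 32 of 90 positive, while that of all genes moved to -0.24. Array medians over all probe sets lay at 5.97 to 6.09, too close together for a shift of this size. The median tested gene stood at 8.12 in knockout and 7.78 in wildtype cells. Centring moves all genes alike, so the gap of 0.10 between members and all genes could not change. It was 0.02 with the filter at the 50th percentile and 0.16 with no filter on low values. Every knockout array lay above every wildtype array for 30 of the 90 members (22.2% of all genes) and below for 2 (12.7%). The median member difference was 0.11 in batch 1 (KO1 minus WT1, with no replicate check) and 0.31 in batch 2, and 67 of 90 members had the same sign in both. No member passed limma's test of the genotype by batch interaction at an adjusted p of 0.05, nor did more than 0.0207% of all genes, and 1 of 90 had an unadjusted p under 0.05 (13.3% of all genes).

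**Figure D1:**
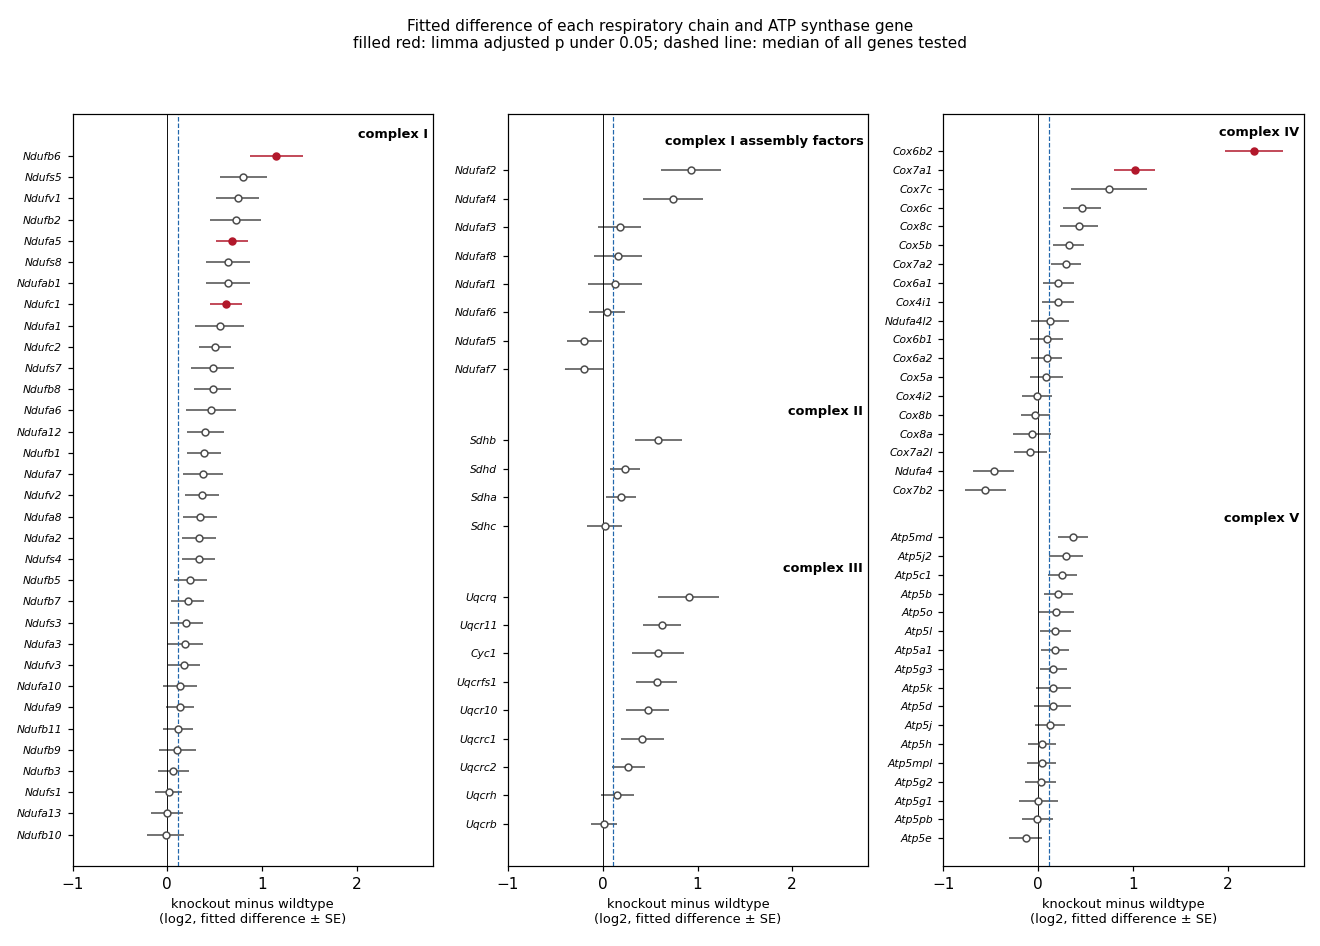
Fitted difference of each of the 90 tested genes, knockout minus wildtype (log2, horizontal axis, with its SE), by complex. The 5 filled red points passed limma's adjusted p of 0.05, and the dashed line is the median of all genes tested, 0.11. Most points lie between 0 and 0.75 as deposited, and the median member is at -0.14 with arrays centred on their medians over genes.

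The differences varied with the level of expression in all genes, and members are mostly highly expressed. Of the 90 members, 44 lay in the highest of 10 equal bins of genes by mean level (bin 10) and 19 in bin 9. In bin 10 the median difference was 0.19 over members and 0.05 over all genes, with 4.55% of members and 5.99% of all genes called. In bin 9 it was 0.40 over members and 0.18 over all genes, with 5.26% and 10.9% called. Every knockout array lay above every wildtype array for 29.5% of members and 24.6% of all genes in bin 10. In bin 9 these shares were 36.8% and 31.9%, so the background share at these levels was above the 22.2% of all genes. With genes under the 50th percentile of level left out, the median was 0.21 over members and 0.20 over all genes.

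**Figure D2:**
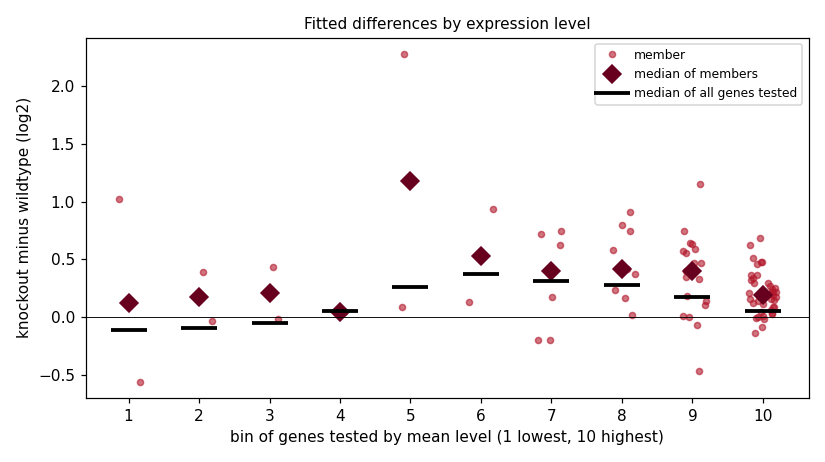
Fitted difference (log2, vertical axis) of each member against its bin of mean level among all 14524 genes tested (horizontal axis, 10 highest). Diamonds are medians of members, black bars medians of all genes in that bin: in bin 10 they are 0.19 against 0.05, values as deposited.

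The members also moved together between arrays of the same genotype. Set against the wildtype mean of each gene, the median member stood at 0.20, 0.17, 0.20 and 0.34 on KO1 to KO4, against 0.08, -0.08, -0.13, 0.22 and -0.09 on WT1 to WT5. WT4 thus lay above KO1, KO2 and KO3, and the groups overlapped. Over all genes tested the median stood at 0.05, 0.05, 0.14 and 0.16 on KO1 to KO4. On WT1 to WT5 it stood at 0.06, -0.07, -0.02, 0.06 and -0.03. Its sign was that of the median member on every array. On WT4, 88 of 90 members were above their wildtype mean, on WT3 8, on WT5 12, on WT2 18 and on WT1 69. On KO4, 79 of 90 were above their knockout mean, against 26 to 34 on the other knockout arrays. WT3, WT4 and WT5 share a batch that holds no knockout array, so they add to the estimate of the spread and not to the fitted difference. Without KO1 or without WT1 the fit is the same, and its difference is that of batch 2 alone. Without WT2 the difference is that of KO1 minus WT1. Fits that left out 1 array are therefore not separate checks. Without KO4 the median member difference was 0.17, and without WT2 it was 0.11. With any 1 of KO3, KO4, WT2, WT3, WT4 or WT5 left out, 2 members were called, Cox6b2 and Cox7a1.

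**Figure D3:**
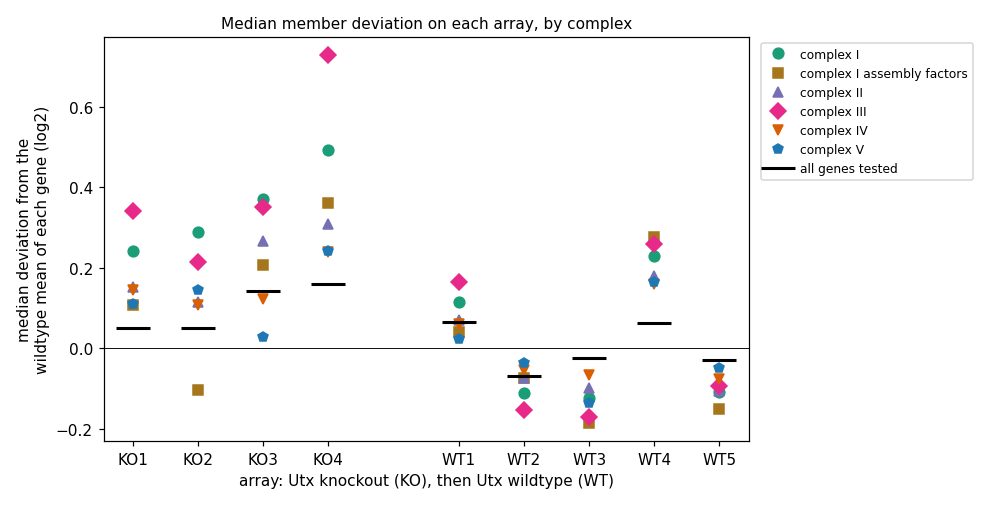
Median deviation of the members of each complex from the wildtype mean of each gene (log2, vertical axis) on the 4 knockout and 5 wildtype arrays, with all genes tested as black bars. WT4 stands as high as some knockout arrays, and KO4 is highest, with complex III at 0.73. The scale is as deposited.

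Other measures moved with genotype on the same arrays. All 14 measured genes of the G2 and M phase list rose (median 1.95, log2; per-array medians 1.65 to 2.13 on knockout and -0.26 to 0.19 on wildtype arrays). Double-positive thymocyte markers rose for 8 of 11 genes, with a summed level (log2 of the sum) of 15.07 to 15.59 in knockout against 14.22 to 14.69 in wildtype cells. Macrophage and dendritic cell markers rose for 3 of 10, with 10.59 to 11.57 in knockout against 8.96 to 9.72 in wildtype cells, while Cd14, Marco and Xcr1 of that list lay under the filter. B cell markers rose for 2 of 7, with 10.36 to 11.45 in knockout against 9.51 to 10.11 in wildtype cells. Of the 8 iNKT cell markers, 3 (Cd44, Il2rb and Tbx21) fell. The summed level of all 8 was lower, at 14.5493 to 14.7007 in knockout against 14.8924 to 15.0013 in wildtype cells, without overlap. Among all genes tested, 7.88% rose and 3.37% fell. Of the stroma markers 1 of 8 rose (Col1a1), and by limma 0 of 2 erythroid and 0 of 4 neutrophil markers passed. At an unadjusted p of 0.05, 1 erythroid marker was lower, and 0 neutrophil markers passed. Neutrophil markers varied widely between arrays of a genotype (median SE 1.15). Their summed level was 7.17 to 10.73 in knockout and 7.12 to 9.64 in wildtype cells. On WT4, the median was 0.04 for G2 and M phase genes, 0.04 for double-positive thymocyte markers, 0.22 for respiratory genes and 0.06 for all genes tested. These are values of 1 array, and no relation between the lists was tested. The part of these lists in the differences below was not tested, and in RNA of sorted populations fewer cells of a type and less RNA per cell cannot be told apart. The interquartile range of all probe sets was 3.80 to 4.29 on knockout against 3.45 to 3.84 on wildtype arrays.

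Complex I, the NADH dehydrogenase, carried 3 of the 5 calls. 3 of 33 tested subunits rose and 0 fell, 9.09% against 11.3% of all genes called in either direction. At an unadjusted p of 0.05, 10 were higher and 0 lower, 30.3% against 30.8% of all genes. The median difference was 0.36 (0.14 in batch 1, 0.52 in batch 2, and 0.02 with arrays centred on their medians). As deposited, 31 of 33 differences were positive (93.9%, against 59.2% of all genes). The groups did not overlap for 15, all higher in knockout cells (45.5%, against 22.2% of all genes). In the 2 highest bins of level, this share was 31.9% (bin 9) and 24.6% (bin 10) of all genes. Ndufb6, a subunit of the membrane arm, read 10.92, 10.89, 11.34 and 11.59 in knockout cells, against 10.35, 9.74, 9.95, 10.32 and 9.90 in wildtype cells. KO3 and KO4 were highest, and the groups did not overlap. Its means were 11.19 ± 0.34 (SD, n = 4) in knockout and 10.05 ± 0.27 (n = 5) in wildtype cells, 2.22-fold (log2 difference 1.15, SE 0.28, adjusted p = 0.0358 by limma), with 0.57 in batch 1 and 1.54 in batch 2, and its other probe set had 0.68 (adjusted p = 0.0873 in limma's fit of all probe sets).

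Ndufa5, a subunit of the arm that reaches into the matrix, read 11.78, 11.78, 11.92 and 12.09 in knockout cells, against 11.28, 11.12, 11.30, 11.26 and 11.10 in wildtype cells. The knockout arrays lay at least 0.48 above the highest wildtype array. Its levels differed 1.61-fold (log2 difference 0.68, SE 0.17, adjusted p = 0.0358 by limma), and its other probe set gave 0.65 (adjusted p = 0.0533 in limma's fit of all probe sets). Ndufc1, a small membrane subunit, read 11.78, 11.81, 11.88 and 11.93 in knockout cells, against 11.31, 11.15, 11.12, 11.46 and 11.10 in wildtype cells. The knockout values were tightly grouped and above all wildtype values (log2 difference 0.62, SE 0.17, adjusted p = 0.0497 by limma, 1.54-fold), and the other probe set of Ndufc1 had a larger difference, 1.39 (adjusted p = 0.0467 in limma's fit of all probe sets). In that fit the probe set used here did not pass (adjusted p = 0.0592). Ndufc2, its partner in the membrane arm, differed by 0.51 (adjusted p = 0.0865 by limma), and its other probe sets by 0.66, 0.60 and -0.02 (adjusted p = 0.0435, 0.0517 and 0.942 in limma's fit of all probe sets). These calls rested on the full set of arrays. Ndufb6 and Ndufa5 were called in 3 of the 9 fits that left out 1 array, with 0.57 to 1.54 and 0.50 to 0.81. Both were lost without KO3, KO4, WT2, WT3, WT4 or WT5. Ndufc1 (0.47 to 0.72, adjusted p 0.0518 to 0.461 by limma) was called in 0. The ends of these ranges of differences are the batch 1 and batch 2 differences.

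The catalytic core of complex I holds the flavin and iron-sulphur clusters. None of its 6 tested genes passed the adjusted test by limma. At an unadjusted p of 0.05, 2 did (Ndufv1 and Ndufs8), 33.3% against 30.8% of all genes. The median difference was 0.42. Ndufv1, which binds NADH and the flavin, read 11.13, 11.04, 11.40 and 11.53 in knockout cells, against 10.67, 10.39, 10.47, 10.86 and 10.32 in wildtype cells. The groups did not overlap (log2 difference 0.74, SE 0.23, adjusted p = 0.0691 by limma). Ndufs1, the largest iron-sulphur subunit, read 10.44, 10.39, 10.46 and 10.54 in knockout cells, against 10.48, 10.41, 10.44, 10.46 and 10.47 in wildtype cells, with overlapping groups and a difference of 0.01 (SE 0.14). Ndufs8 had 0.64 (adjusted p = 0.103), Ndufs7 0.48 (adjusted p = 0.189), Ndufv2 0.36 (adjusted p = 0.209) and Ndufs3 0.20 (adjusted p = 0.469), all by limma. Probe sets of Ndufv2 differed in size: 0.36 on that of highest level, and 0.95 and 0.79 on the others (adjusted p = 0.232, 0.0424 and 0.065 in limma's fit of all probe sets). Within 1 complex the differences thus ran from near 0 for Ndufs1 to 0.74 for Ndufv1 on the scale as deposited, and whether subunits differ from each other was not tested.

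The accessory subunits, which wrap the core, had 27 tested members with a median of 0.34. Besides the 3 called, Ndufs5, an intermembrane space subunit, had 0.80 (adjusted p = 0.0705), Ndufb2 0.72 (adjusted p = 0.11) and Ndufab1, the mitochondrial acyl carrier protein, 0.64 (adjusted p = 0.108 by limma). Probe sets of Ndufab1 disagreed, from -0.54 to 0.79, and those of Ndufb9 from -0.71 to 0.61. At the other end, Ndufb10 had the most negative difference of complex I, -0.02 (SE 0.19), and read 11.75, 11.83, 11.46 and 11.70 in knockout cells, against 11.74, 11.70, 11.50, 11.99 and 11.66 in wildtype cells. Its groups overlapped. Ndufa13, also known as Grim19, had -0.0028 (SE 0.17). Over all members, 37 of the 49 with several tested probe sets had the same sign on all of them.

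Assembly factors of complex I build the enzyme and do not stay in it. None of the 8 passed by limma, and 2 had an unadjusted p under 0.05 (25%, against 30.8% of all genes). The median was 0.15 (-0.01 in batch 1, 0.14 in batch 2, -0.20 with arrays centred on their medians). Ndufaf2, which assists the late steps, read 8.89, 9.24, 8.71 and 9.45 in knockout cells, against 8.45, 7.87, 7.84, 8.65 and 7.98 in wildtype cells. WT1 and WT4 came near the knockout arrays without overlap (log2 difference 0.93, SE 0.32, adjusted p = 0.0899 by limma). Ndufaf4 had 0.74 (adjusted p = 0.152 by limma), with -0.10 in batch 1 and 1.31 in batch 2. The lowest was Ndufaf7, a methyltransferase for a core subunit, with 8.77, 8.41, 8.82 and 8.83 in knockout cells, against 8.91, 8.92, 8.70, 9.18 and 8.97 in wildtype cells. Its groups overlapped (log2 difference -0.20, SE 0.20, adjusted p = 0.527 by limma).

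Complex II, succinate dehydrogenase, links the citric acid cycle with the chain. None of its 4 genes passed by limma, and 1 (Sdhb) had an unadjusted p under 0.05 (25%, against 30.8% of all genes). All 4 differences were positive as deposited (median 0.22, and -0.13 with arrays centred on their medians). Sdhb, the iron-sulphur subunit, read 10.68, 10.67, 10.80 and 11.16 in knockout cells, against 10.44, 10.06, 10.10, 10.64 and 10.01 in wildtype cells. KO4 was highest, WT4 came within 0.04 of KO2, and the groups did not overlap (log2 difference 0.59, SE 0.25, adjusted p = 0.149 by limma). Sdha, the flavoprotein, read 11.64, 11.54, 11.70 and 11.82 in knockout cells, against 11.54, 11.43, 11.44, 11.60 and 11.44 in wildtype cells, with overlapping groups (log2 difference 0.20, SE 0.16, adjusted p = 0.423 by limma). Its probe sets ran from -0.36 to 0.38. The membrane anchors Sdhd and Sdhc had 0.23 (SE 0.16) and 0.02 (SE 0.18).

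Complex III, the cytochrome bc1 complex, had the highest median of the complexes, 0.47. It was 0.17 in batch 1, 0.70 in batch 2 and 0.12 with arrays centred on their medians. None of its 9 genes passed by limma. An unadjusted p under 0.05 was found for 3 (Uqcr11, Uqcrq and Uqcrfs1), 33.3% against 30.8% of all genes. As deposited, 9 of 9 differences were positive, against 59.2% of all genes. Cyc1, cytochrome c1, read 9.96, 9.66, 10.20 and 10.54 in knockout cells, against 9.69, 9.35, 9.37, 9.84 and 9.37 in wildtype cells. Its groups overlapped through KO2 and WT4 (log2 difference 0.58, SE 0.28, adjusted p = 0.191 by limma). Uqcrfs1, the Rieske iron-sulphur protein, read 10.93, 10.70, 11.13 and 11.23 in knockout cells, against 10.56, 10.32, 10.32, 10.70 and 10.32 in wildtype cells. KO2 lay just below WT4, so the groups overlapped (log2 difference 0.57, SE 0.21, adjusted p = 0.115 by limma).

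Uqcrc1, a core protein of complex III, read 10.25, 10.13, 10.26 and 10.64 in knockout cells, against 10.08, 9.76, 9.67, 10.23 and 9.82 in wildtype cells, with KO2 below WT4 (log2 difference 0.42, SE 0.23, adjusted p = 0.245 by limma). Uqcrq, a small subunit, had the largest difference of the complex, with 9.94, 9.98, 10.05 and 10.67 in knockout cells, against 9.63, 8.92, 8.97, 9.72 and 9.17 in wildtype cells. KO4 stood 0.63 above the next knockout array, and the groups did not overlap (log2 difference 0.91, SE 0.32, adjusted p = 0.1 by limma). Without KO4 the difference of Uqcrq was 0.75 (adjusted p = 0.134 by limma). Uqcr11 had 0.62 (adjusted p = 0.0799 by limma), Uqcr10 0.47 (adjusted p = 0.188), Uqcrc2 0.27 (adjusted p = 0.315), Uqcrh 0.15 and Uqcrb 0.01. Uqcrb, one of the most highly read members, varied little among arrays, at 12.48 ± 0.02 (SD, n = 4) in knockout and 12.47 ± 0.06 (n = 5) in wildtype cells.

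**Figure D4:**
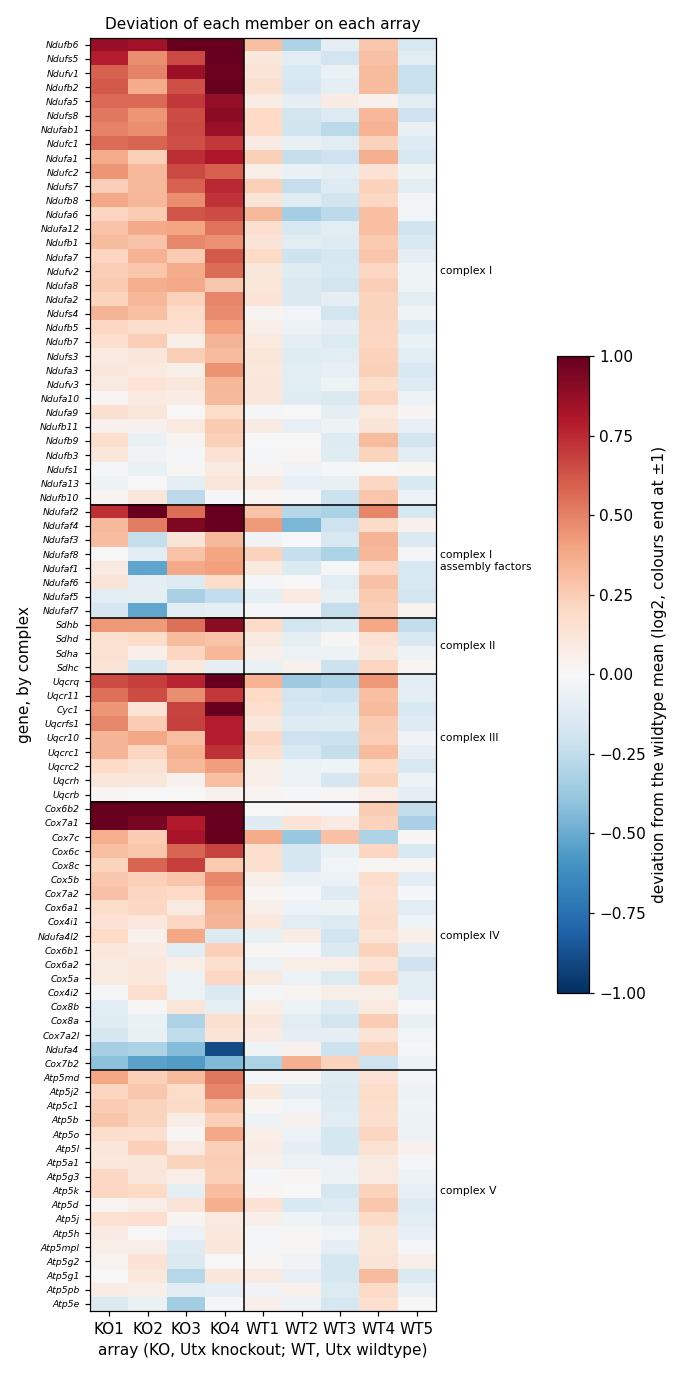
Deviation of each tested gene from its wildtype mean on each array (log2, colours end at 1 in either direction), knockout arrays left and wildtype arrays right, rows by complex and by fitted difference. The upper rows of complexes I and III are darkest on KO4, and WT4 is above the wildtype mean for 88 of 90 genes. Values are as deposited.

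Complex IV, cytochrome c oxidase, held the member of largest difference. 2 of 19 members rose and 0 fell by limma, 10.5% against 11.3% of all genes called in either direction. At an unadjusted p of 0.05, 2 were higher and 1 lower, 15.8% against 30.8% of all genes. The median was 0.12 (-0.23 with arrays centred on their medians). The genes called were Cox6b2 and Cox7a1, of the 8 paralogues known from particular tissues or conditions, and Cox7a1 entered the test through its knockout arrays alone. Of the 11 common members 0 passed by limma, with 0 at an unadjusted p of 0.05. Cox6b2, the paralogue of Cox6b1 known from testis, read 8.81, 7.99, 8.95 and 9.05 in knockout cells, against 6.44, 6.45, 6.43, 6.69 and 6.19 in wildtype cells. KO2 was the lowest knockout array and still 1.30 above the highest wildtype array, WT4. Its means were 8.70 ± 0.48 (SD, n = 4) in knockout and 6.44 ± 0.18 (n = 5) in wildtype cells, 4.84-fold (log2 difference 2.28, SE 0.31, adjusted p = 0.00527 by limma), with 2.37 in batch 1 and 2.21 in batch 2. Cox6b2 was the only member called in all 9 fits that left out 1 array (2.17 to 2.47, adjusted p 0.000938 to 0.0324). Cox6b1, the common form, had 0.09 (SE 0.18).

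Cox7a1, the heart and muscle form of Cox7a, read 5.41, 5.11, 4.95 and 5.18 in knockout cells, against 4.03, 4.30, 4.24, 4.39 and 3.84 in wildtype cells. The groups did not overlap, and KO1 was highest. All wildtype values lay under the filter level of 4.54 and are not shown to be above background, so no fold is given and the difference is one of measured values only. It was 1.02 (SE 0.22, adjusted p = 0.0232 by limma), with 1.38 in batch 1 and 0.78 in batch 2, and was called in 7 of 9 fits that left out 1 array (0.78 to 1.38), not without KO1 or WT1. Cox7a2, the common form, had 0.29 (SE 0.16, adjusted p = 0.243 by limma) and groups that did not overlap, and Cox7a2l, which joins complexes III and IV, had -0.08 (SE 0.17).

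**Figure D5:**
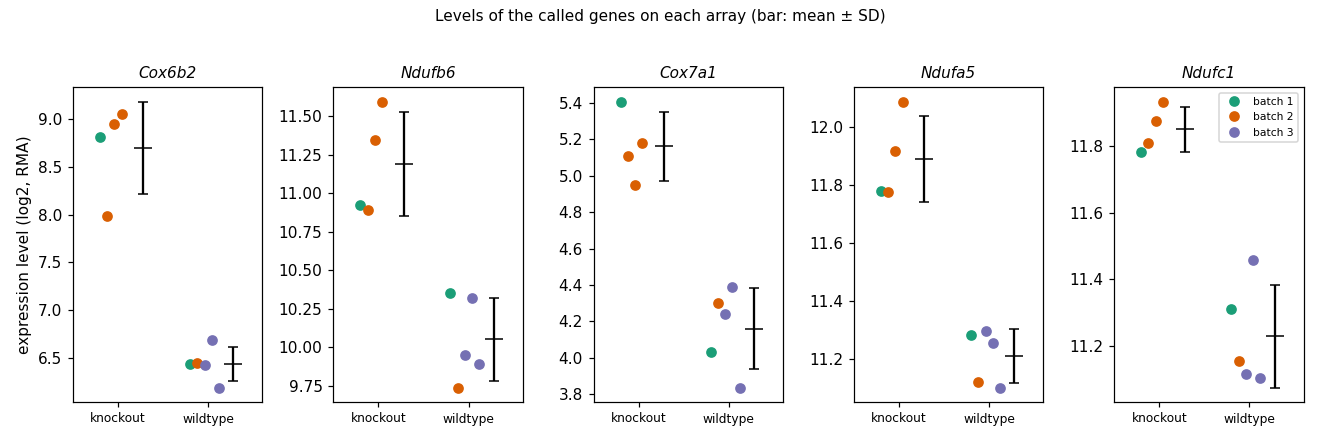
Levels (log2, vertical axes of different range) of the 5 called genes on the knockout and wildtype arrays, coloured by batch, with mean ± SD. For each gene all 4 knockout arrays lie above all 5 wildtype arrays. The widest gap is that of Cox6b2.

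The other paralogue pairs did not pass. Cox4i1, the common form of subunit 4, read 11.74, 11.71, 11.81 and 11.94 in knockout cells, against 11.70, 11.50, 11.46, 11.78 and 11.56 in wildtype cells (log2 difference 0.21, SE 0.17, adjusted p = 0.426 by limma), and Cox4i2, the form known from lung and low oxygen, had -0.02 (SE 0.16). Cox6a1 and its heart and muscle paralogue Cox6a2 had 0.21 (SE 0.16) and 0.09 (SE 0.16). Cox8a, Cox8b and Cox8c had -0.07, -0.03 and 0.43 (SE 0.20, 0.16 and 0.20), the groups of Cox8c not overlapping (adjusted p = 0.176 by limma). Cox7b2, a form known from testis, read 4.35, 4.22, 4.19 and 4.31 in knockout cells, against 4.44, 5.11, 4.98, 4.55 and 4.70 in wildtype cells. Its knockout values were all under the filter level and below all wildtype values, and it passed the filter through the wildtype arrays alone (log2 difference -0.56, SE 0.21, adjusted p = 0.12 by limma), with -0.09 in batch 1 and -0.87 in batch 2. Levels this low on an array are not shown to be above background.

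Ndufa4 was the common member of complex IV with the most negative difference. It read 10.37, 10.39, 10.27 and 9.81 in knockout cells, against 10.67, 10.74, 10.49, 10.93 and 10.69 in wildtype cells. The groups did not overlap and KO4 was lowest, the array on which 79 of 90 members were above their knockout mean (log2 difference -0.47, SE 0.22, adjusted p = 0.18 by limma). Its difference was -0.29 in batch 1 and -0.59 in batch 2, and fits that left out 1 array lay from 1 of these values to the other. Its relative Ndufa4l2, known from low oxygen, had 0.12 (SE 0.20). Cox5a, which with Cox4i1 sits next to the catalytic subunits, read 12.03, 12.05, 11.89 and 12.15 in knockout cells, against 12.04, 11.88, 11.81, 12.16 and 11.83 in wildtype cells, with overlapping groups (log2 difference 0.09, SE 0.17, adjusted p = 0.762 by limma). Cox7c had 0.75 (SE 0.40, adjusted p = 0.235 by limma), with -0.01 in batch 1 and 1.25 in batch 2. Cox6c and Cox5b had 0.46 (adjusted p = 0.164) and 0.32 (adjusted p = 0.218), both with groups that did not overlap.

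Complex V makes ATP and showed the smallest spread of differences, from -0.13 to 0.37. None of its 17 genes passed by limma, and 0 had an unadjusted p under 0.05, against 30.8% of all genes. The median was 0.16 (0.10 in batch 1, 0.14 in batch 2, -0.19 with arrays centred on their medians). With a median SE of 0.16, a difference of the size of that median was not detectable with this number of arrays. In the catalytic head, Atp5a1 (subunit alpha) read 12.72, 12.74, 12.84 and 12.86 in knockout cells, against 12.67, 12.56, 12.56, 12.71 and 12.61 in wildtype cells. WT4 came within 0.01 of KO1 (log2 difference 0.17, SE 0.15, adjusted p = 0.449 by limma). Atp5b (subunit beta) read 12.39, 12.33, 12.18 and 12.35 in knockout cells, against 12.06, 12.15, 12.01, 12.27 and 12.06 in wildtype cells, with overlapping groups (log2 difference 0.21, SE 0.16, adjusted p = 0.382 by limma).

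The lowest difference of complex V was that of Atp5e (subunit epsilon), which read 11.84, 11.91, 11.63 and 11.96 in knockout cells, against 12.03, 11.93, 11.81, 12.14 and 11.98 in wildtype cells, with overlapping groups (log2 difference -0.13, SE 0.17, adjusted p = 0.628 by limma). The highest was that of Atp5md, a small membrane subunit also known as DAPIT, with 11.70, 11.55, 11.63 and 11.84 in knockout cells, against 11.30, 11.33, 11.19, 11.46 and 11.29 in wildtype cells. The groups did not overlap (log2 difference 0.37, SE 0.16, adjusted p = 0.164 by limma). The 3 genes for the proton-carrying subunit c, Atp5g1, Atp5g2 and Atp5g3, encode the same mature protein and had 0.00 (SE 0.21), 0.03 (SE 0.16) and 0.16 (SE 0.15). The 4 genes of the peripheral stalk (Atp5pb, Atp5h, Atp5j and Atp5o) ran from -0.01 to 0.19.

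Genes that work with the chain were also measured. Among all genes tested, 7.88% rose, 11.3% were called in either direction, and 30.8% had an unadjusted p under 0.05 by limma. Of the assembly factors of complex IV, 1 of 24 rose and 0 fell by limma (4.17%, median 0.35), namely Cmc2, with 1.37 (SE 0.23, adjusted p = 0.0105). Of the further complex I factors, 2 of 13 rose by limma (15.4%). These were Timmdc1 with 0.73 (adjusted p = 0.0432) and Ttc19, a complex III factor that both lists held, with 0.996 (adjusted p = 0.0499). Among cytochrome c and coenzyme Q genes 2 of 13 rose by limma (15.4%). Coq8a, an atypical kinase of coenzyme Q synthesis, had 2.98 (adjusted p = 0.00458) and the hydroxylase gene Coq7 had 1.32 (adjusted p = 0.0286). Cycs, cytochrome c itself, had 0.08. Of 19 regulators of respiratory genes and mitochondrial DNA, 2 rose by limma, 10.5% against 11.3% of all genes called in either direction. These were Gabpb1, a subunit of the ETS-type factor GABP, with 0.66 (adjusted p = 0.0311) and Tefm, the mitochondrial transcription elongation factor, with 0.97 (adjusted p = 0.037). Nrf1 had 0.06, Gabpa 0.38, Tfam 0.53, Ppargc1b 1.41 (adjusted p = 0.0738) and Ppargc1a -0.93 (adjusted p = 0.195). Of 12 citric acid cycle genes, 0 passed by limma and 1 had an unadjusted p under 0.05 (8.33%), with a median difference of 0.24. Of the 4 tested complex II factors, 0 passed and 1 was at an unadjusted p under 0.05 (25%). Of the 6 of complex III 1 rose (16.7%, Ttc19). Of the 6 of complex V 0 passed, with 3 at an unadjusted p under 0.05 (50%). Of 5 carriers and uncoupling proteins 0 passed, with 0 at that p. These differences are on the scale as deposited.

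Promoters of the 5 called genes are shown because these are the members that moved. The windows, from RefSeq on GRCm38.p6, run from 250 bases before to 50 bases after the gene start, 5′ to 3′ on the strand of the gene, and capitals mark a match to GCGCATG (core of the NRF1 motif), CCGGAAG (ETS factors such as GABP) or AAGATGG (YY1), searched on both strands. Cox6b2 lies at chr7:4753045-4753344 (minus strand), Cox7a1 at chr7:30183921-30184220 (plus), Ndufa5 at chr6:24527477-24527776 (minus, 1 of its starts in the table), Ndufb6 at chr4:40279372-40279671 (minus) and Ndufc1 at chr3:51408906-51409205 (minus).
Cox6b2: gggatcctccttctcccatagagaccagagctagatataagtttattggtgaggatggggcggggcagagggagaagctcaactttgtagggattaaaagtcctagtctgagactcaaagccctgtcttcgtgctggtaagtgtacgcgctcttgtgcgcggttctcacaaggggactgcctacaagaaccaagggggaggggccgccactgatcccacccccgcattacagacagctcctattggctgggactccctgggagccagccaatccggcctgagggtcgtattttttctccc
Cox7a1: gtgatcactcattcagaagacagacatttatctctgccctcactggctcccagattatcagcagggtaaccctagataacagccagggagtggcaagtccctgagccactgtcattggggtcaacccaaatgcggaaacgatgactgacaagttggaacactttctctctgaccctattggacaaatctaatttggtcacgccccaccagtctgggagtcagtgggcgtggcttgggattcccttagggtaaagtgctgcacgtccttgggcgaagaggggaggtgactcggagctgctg
Ndufa5: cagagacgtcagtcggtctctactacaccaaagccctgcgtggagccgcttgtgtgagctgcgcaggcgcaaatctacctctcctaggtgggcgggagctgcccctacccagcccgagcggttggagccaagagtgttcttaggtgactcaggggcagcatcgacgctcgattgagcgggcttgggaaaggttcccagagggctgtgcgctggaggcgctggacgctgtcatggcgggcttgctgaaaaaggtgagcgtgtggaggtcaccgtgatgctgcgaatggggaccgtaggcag
Ndufb6: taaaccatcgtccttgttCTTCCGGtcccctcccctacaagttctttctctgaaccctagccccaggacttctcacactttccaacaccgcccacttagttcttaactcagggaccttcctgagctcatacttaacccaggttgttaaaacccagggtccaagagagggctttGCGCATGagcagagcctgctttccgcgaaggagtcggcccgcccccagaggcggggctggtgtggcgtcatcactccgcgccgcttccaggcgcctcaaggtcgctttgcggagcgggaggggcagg
Ndufc1: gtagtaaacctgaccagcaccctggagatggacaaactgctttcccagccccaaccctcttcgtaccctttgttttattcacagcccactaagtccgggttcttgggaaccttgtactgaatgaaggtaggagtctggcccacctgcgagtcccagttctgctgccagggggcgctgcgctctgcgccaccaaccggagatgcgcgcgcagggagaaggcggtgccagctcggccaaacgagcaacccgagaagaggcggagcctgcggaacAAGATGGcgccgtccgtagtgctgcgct
The Ndufb6 window holds CCGGAAG on the other strand at position -232 and GCGCATG at -77, and that of Ndufc1 holds AAGATGG at 23 after the start. The letters searched are not in the other windows.

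Respiratory genes held these letters more often than promoters at large. A promoter was given for 74 of the 91 members. GCGCATG was in 14 of them (18.9%, against 4.41% of 27025 genes), CCGGAAG in 19 (25.7%, against 9.93%) and AAGATGG in 11 (14.9%, against 7.28%). Any of the 3 was in 35 (47.3%, against 19.5%), with GCGCATG able to overlap its own reverse complement. By complex, at least 1 was held by 12 of 31 genes of complex I, 4 of 7 of its assembly factors and 2 of 3 of complex II. The counts were 3 of 5 for complex III, 5 of 13 for complex IV and 9 of 15 for complex V. Of the 5 called genes, which belong to complexes I and IV, 2 held at least 1. These are counts of letters and no test was made.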

How the data were processed

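RNA of sorted thymic iNKT cells was amplified with a NuGEN kit, per the labels' protocols, and measured on 9 arrays. The values are log2 levels that the authors deposited after RMA, a method that quantile-normalizes arrays, per the submitters' processing notes, with no version given. No source used here says whether batch was adjusted for before deposit. The SD over genes of the batch mean deviation was 0.0457, 0.0258 and 0.0119 for batches 1, 2 and 3, against 0.226, 0.276 and 0.202 for single arrays. Of 45101 probe sets, GEO's platform annotation gave 1 symbol to 34945, several to 932 and none to 9160, with 64 control sets. The probe set of highest mean was used for each gene, and genes with a mean under the 25th percentile of probe sets (4.54) were left out of tests.

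limma 3.58.1 (R 4.3.3) was fitted with genotype and batch, 5 residual degrees of freedom and Benjamini-Hochberg adjustment over 14524 genes. Batch 1 holds 1 knockout and 1 wildtype array and batch 2 holds 3 and 1, so these give the difference. The labels call the replicates biological, and their number limits the precision. Arrays carry no read depth. The procedure was tested on simulated data. All 91 members were found in RefSeq by gene identifier.

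Members and gene lists (assembly factors, coenzyme Q, citric acid cycle, regulators, carriers and cell type markers) were chosen with earlier results of these data known. Array by array values are given for members past the threshold, for the largest positive and negative difference in each complex, and for a set of core subunits and paralogues. Alternatives were the batch term, scaling, filter, probe set rule, array weights, variance prior, threshold, promoter window and arrays left out.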

Additional observations from a re-analysis of the deposited data

Results flagged for a closer look

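Of 180 checks of a gene within a genotype, 5 found 1 array far from the others of its group, where chance gives about 1 in 20. KO4 was the highest knockout array in 4 of them. It read 12.38 for Ndufv3 (next highest 12.17), 12.12 for Ndufa3 (next 11.79), 10.67 for Uqcrq (next 10.05) and 13.12 for Cox5b (next 12.92), in log2. KO2 was the lowest knockout array for Ndufaf7, at 8.41, with the next at 8.77. None of the 5 genes passed the test between genotypes by limma.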

How the results depend on the processing

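The number of members called higher, 5 with batch as a fixed factor, depended most on how batch entered. It was 37 (2 lower) with no batch term and 55 (5 lower) with batch as a random block, whose estimated correlation was -0.32, and all genes moved too, with 43.7% and 69.2% called (4038 higher and 2304 lower, and 6166 and 3879, against 1144 and 490). Correlations of deviations between knockout and wildtype arrays of the same replicate number were -0.92, 0.09, 0.02 and 0.15. The first is between KO1 and WT1, the only arrays of batch 1, so it does not bear on pairing by number. The others showed no pairing. With the replicate block in place of batch, 19 members and 2816 and 1474 genes were called. Whether the batch term was fitted to values already adjusted for batch is not known. Members called higher were 2 with arrays centred on their medians, 1 with array weights (408 and 126 genes), 1 without the wildtype arrays of batch 3 (274 and 66 genes), 10 at a threshold of 0.1, and 18 (1 lower) at an unadjusted p of 0.05. It was 4 with no filter on low values and after another quantile normalization (Ndufc1 lost, adjusted p = 0.0517 and 0.0525 by limma), 4 with the filter at the 50th percentile (Cox7a1 left out), 6 with the mean of probe sets and 7 with trend and robust settings. Without both batch 1 arrays 1 was lower (Cox7b2). Leaving out 1 array gave 2 to 5 higher and 0 to 1 lower, and a median of 0.11 to 0.31. The median was -0.14 with arrays centred. All genes split into 583 higher and 1205 lower with arrays centred, and 1042 and 747 after another quantile normalization.

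Signs under each alternative are given for the 37 members named by rule, none of which was called where its sign turned, and the cause was not tested. Over all 90, positive differences numbered 78 as deposited, 32 with arrays centred and 68 after another quantile normalization, and 24 members crossed 0 when 1 array was left out. Of the 37, those that turned with arrays centred were Ndufs1 (-0.34), Sdha (-0.15), Cox4i1 (-0.14), Cox5a (-0.26), Atp5a1 (-0.18), Atp5b (-0.13), Cox6a1 (-0.14), Cox6a2 (-0.26), Cox6b1 (-0.26), Cox7a2 (-0.057), Ndufa4l2 (-0.23), Atp5g1 (-0.35), Atp5g2 (-0.32) and Atp5g3 (-0.19). After quantile normalization those of the 37 were Ndufs1 (-0.18), Cox4i2 (0.047), Cox6a2 (-0.063), Cox8b (0.060), Atp5g1 (-0.13) and Atp5g2 (-0.064). Atp5g1 had -0.019 with no batch term, -0.049 with the random block, -0.0545 with the replicate block and likewise -0.0545 with array weights, and -0.052 with the mean of probe sets. With the random block Ndufs1 had -0.0036 and Atp5g2 -0.017. With array weights Atp5g2 had -0.0078 and Cox8b 0.0002, and with the mean of probe sets Cox6a2 had -0.22. Without both batch 1 arrays Cox7a2l had 0.029, Cox8a 0.037 and Cox8b 0.065. Of the 37, leaving out 1 array, Atp5g1 ran from -0.0905 to 0.071, Atp5g2 from -0.016 to 0.067, Cox4i2 from -0.0685 to 0.022, Cox5a from -0.0040 to 0.15, Cox7a2l from -0.25 to 0.029, Cox8a from -0.23 to 0.037, Cox8b from -0.17 to 0.065, Ndufb10 from -0.0635 to 0.044 and Ndufs1 from -0.043 to 0.050. Cox6b2 was called in every fit. With arrays centred Ndufb6 was still called (0.80, adjusted p = 0.0335), and Cox7a1 (0.67, adjusted p = 0.114), Ndufa5 (0.33, adjusted p = 0.201) and Ndufc1 (0.27, adjusted p = 0.311 by limma) were not.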
